A study of Homo sapiens with 6 samples.

Results

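The genes described here encode the nuclear subunits of respiratory complex I, the NADH:ubiquinone oxidoreductase of the inner mitochondrial membrane. They were chosen by symbol, as every row of the deposited tables named NDUFA, NDUFAB, NDUFB, NDUFC, NDUFS or NDUFV followed by a number, which leaves out assembly factors and pseudogenes. This gave 36 genes of 21961 symbols. NDUFA6 and NDUFB10, accessory subunits of the enzyme, were not analysed here. NDUFA4 carries the family name but is a subunit of complex IV, and without it the family had 23 genes higher, 1 lower and a median log2 fold change of 0.47.

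RNA came from HaCaT, a line of immortalised human skin keratinocytes, and was sequenced in 3 libraries titled mod and 3 titled Nvs. For mod the treatment label reads UV-induced. For Nvs it reads control, whereas the design text of the series sets UVB-irradiated HaCaT cells against irradiated cells that also received BVNV, which the title ties to beet vesicles, and names no unirradiated cells. Neither reading was chosen from the data, so the groups keep their titles, and the source label of skin was read as the origin of the line. No dose, time or age is given, and the labels do not say that the replicates were separate cultures, so p-values reflect only how much these libraries differ, and that variation may be technical.

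Complex I takes electrons from NADH, passes them along iron-sulfur clusters to ubiquinone and pumps protons across the inner membrane. It is L-shaped, with a matrix arm that holds the NADH and quinone sites and a membrane arm that pumps protons. The pumping core is encoded in mitochondrial DNA by the MT-ND genes, while the redox core and all accessory subunits are encoded in the nucleus and imported. In keratinocytes, mitochondria supply energy and reactive oxygen species, and complex I is one of the sites where such species form.

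The libraries held 45637046 to 51369628 counts in mod and 41120058 to 44080808 in Nvs. Mitochondrially encoded transcripts made up 30.5% ± 0.817 of the counts in mod and 52.6% ± 0.751 in Nvs (mean ± SD, n = 3), which left 33945527 ± 2354312 and 20385153 ± 1040738 counts of nuclear genes. Levels below are CPM values, counts relative to library size, scaled by TMM, a method that sets the typical gene to no change, with factors between 1.285 and 1.321 for mod libraries and between 0.7622 and 0.7737 for Nvs libraries. Under scaling by library total the median tested gene was lower in Nvs by -0.77 on the log2 scale, so each change is one relative to the typical gene. No spike-in is named, and in bulk RNA fewer cells and less RNA per cell cannot be told apart. Keratinocyte markers were all detected, with a summed level of 17610 to 19216 CPM in mod and 21249 to 22970 CPM in Nvs; of these 6 genes KRT14 was higher (log2 fold change 0.63), COL17A1 (-0.56) and DSG3 (-0.25) were lower, and KRT5, TP63 and ITGB4 were not called. Markers of melanocytes (2 of 4 with reads) summed to at most 2.90 CPM. Those of fibroblasts (4 of 5 with reads) summed to 0.0750 to 0.168 CPM in mod and 0.235 to 0.632 CPM in Nvs. DCN made up most of the Nvs sum, at 0 to 0.123 CPM in mod and 0.235 to 0.539 CPM in Nvs, while COL3A1 and PDGFRA had no read in any Nvs library. Those of leukocytes and endothelium (5 of 6 with reads) summed to at most 0.632 CPM. The part of these marker differences in the results below was not tested.

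Relative to the typical gene, transcripts of the nuclear complex I subunits were mostly more abundant in Nvs than in mod, while scaled by library total 15 of them were called lower and 2 higher. In edgeR's quasi-likelihood test with Benjamini-Hochberg adjustment over 14617 genes, 34 of the 36 genes passed the filter on low counts. Of these, 24 were higher in Nvs at an adjusted p under 0.05, 1 was lower (NDUFA9) and 9 were not called. Among all tested genes 43.3% were called, 22.8% as higher and 20.5% as lower. The median log2 fold change of the 34 genes was 0.47, against -0.01 over all tested genes, and 30 of the 34 lay above 0. The 24 higher genes ranged from 0.18 to 1.72 with a median of 0.60, and 3 of them (NDUFS1, NDUFA1 and NDUFA2) differed by at least 2-fold. The largest value, that of NDUFS1, came from low counts, and its call depended on the setting, as given below. In 25 of the 34 genes the CPM values of both groups did not overlap, against 53.6% of all tested genes.

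**Figure D1:**
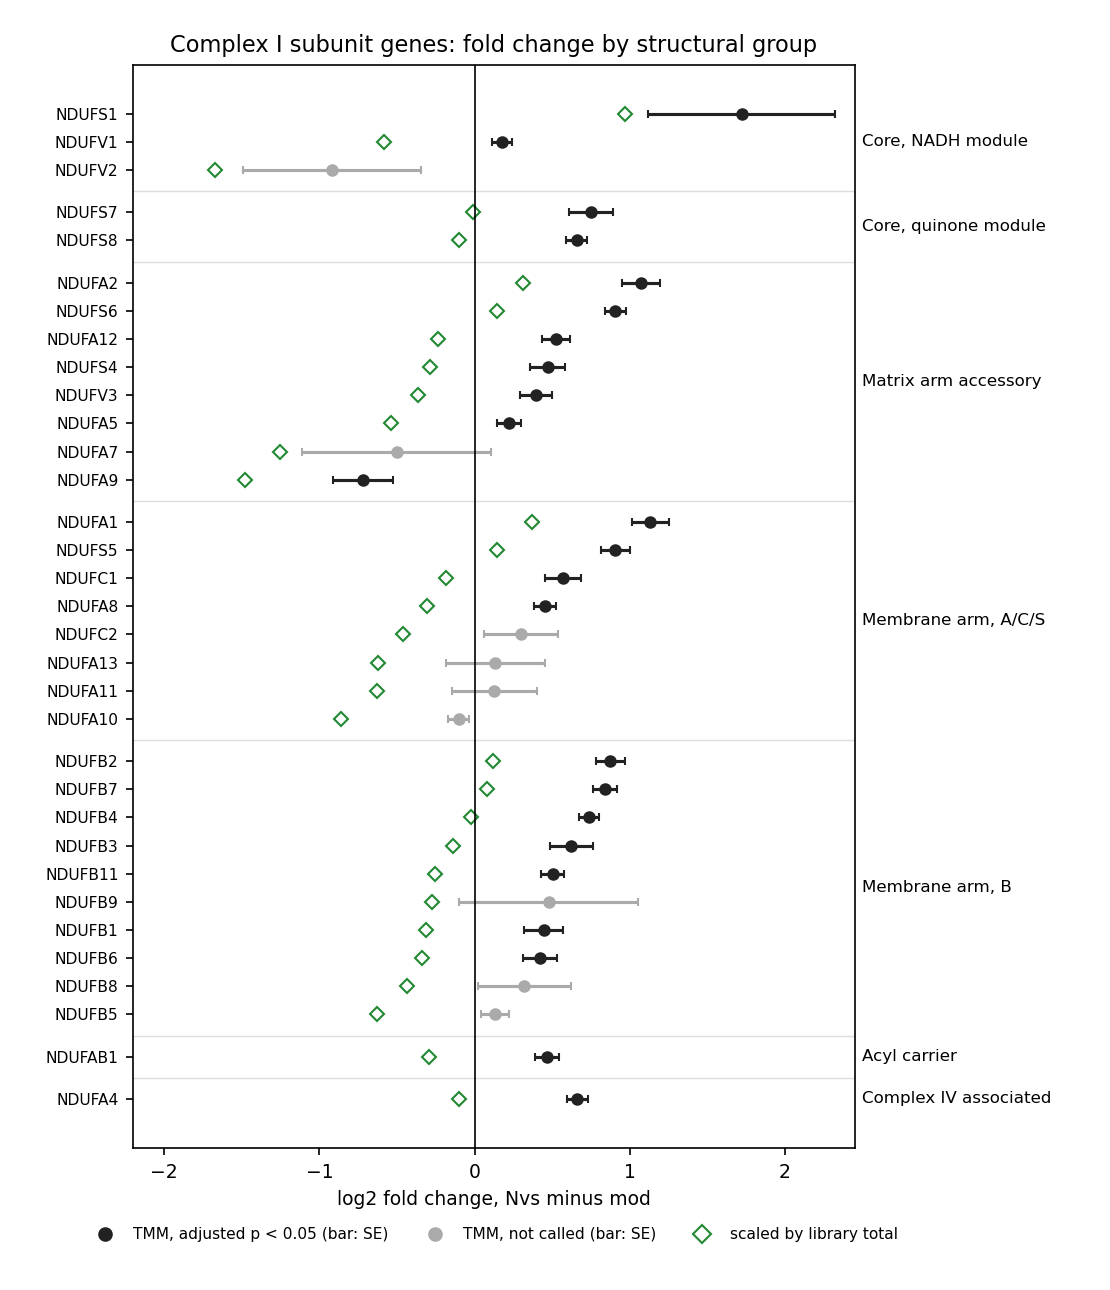
Log2 fold change (Nvs minus mod) of 33 tested genes by structural group. Circles are TMM-scaled values with their standard error, black where the adjusted p was under 0.05 and grey otherwise, and open diamonds are the same genes scaled by library total. With TMM, 29 of 33 circles lie above 0; by library total, 2 of the 34 tested genes were called higher and 15 lower.

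The sign of the change depended on what the counts were set against. As a share of all counts, the 36 genes together held 0.138%, 0.142% and 0.133% in mod 1 to 3 and 0.118%, 0.110% and 0.125% in Nvs 1 to 3. As a share of counts outside the mitochondrial genome, they held 0.198%, 0.202% and 0.194% in mod and 0.249%, 0.236% and 0.259% in Nvs. The groups did not overlap on either denominator, with Nvs lower on the first and higher on the second. Scaled by library total, 15 genes were called lower and 2 higher in edgeR, with log2 fold changes of 0.37 for NDUFA1 and 0.31 for NDUFA2, and the median of the family was -0.29. That median stood above the all-gene median of -0.77. With TMM factors and library sizes computed without the mitochondrial genome, 23 genes were higher and 1 lower, with a median of 0.46, and NDUFV1 lost its call.

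**Figure D2:**
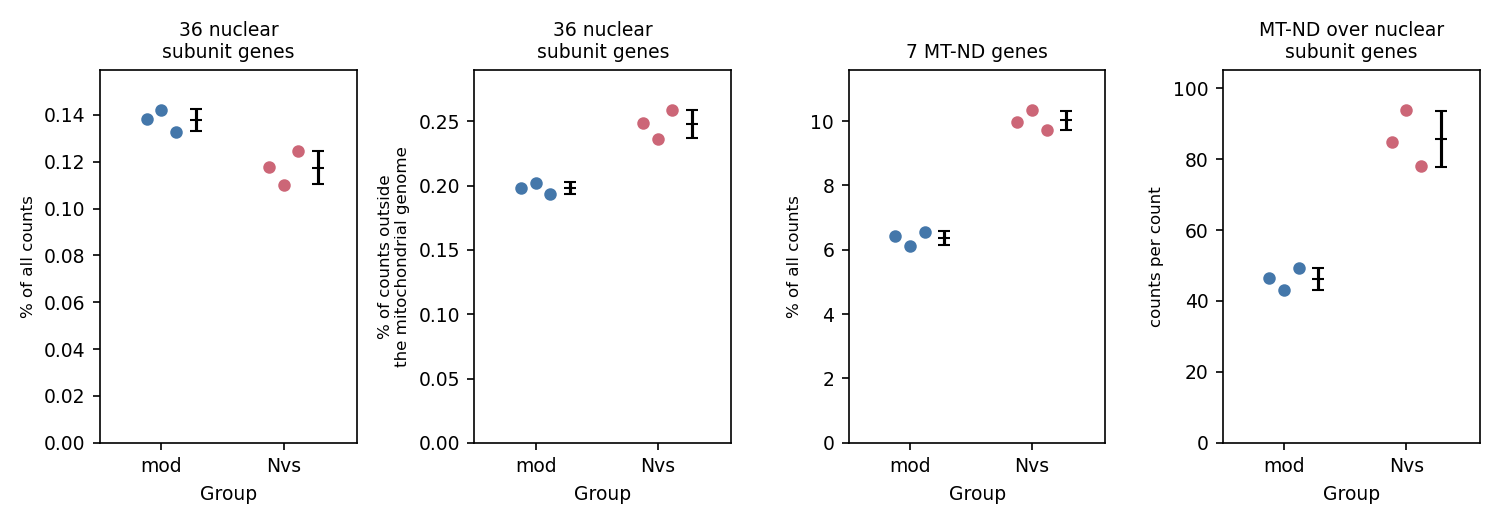
Summed counts of the 36 nuclear subunit genes as a percentage of all counts and of counts outside the mitochondrial genome, the 7 MT-ND genes as a percentage of all counts, and MT-ND counts per nuclear subunit count. Points are libraries and black bars are means with SD (n = 3). Nuclear subunits were 0.138% (mod) and 0.118% (Nvs) of all counts, but 0.198% and 0.248% of the counts outside the mitochondrial genome.

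The upstream sequence of 5 genes is shown because they carry motifs of factors known to drive nuclear respiratory genes. They include genes called higher and a gene called lower with TMM scaling, but no gene that was not called. NRF1 (nuclear respiratory factor 1) and GABP, an ETS-family factor, are classical activators of these promoters. RefSeq promoters of assembly GRCh38.p14, from 250 bases before to 50 after the start, were found for 31 of the 36 genes. The 120 bases before the start are printed 5′ to 3′ in the direction of transcription, from chr3:120596216-120596335 (NDUFB4, plus strand), chr12:95003698-95003817 (NDUFA12, minus strand), chr12:4648994-4649113 (NDUFA9, plus strand), chrX:119871712-119871831 (NDUFA1, plus strand) and chr19:14572067-14572186 (NDUFB7, minus strand). Capitals mark the NRF1 motif in the first 3 and the ETS motif in the last 2, on either strand; the last capitals of NDUFB4 belong to a match that runs past the start.
NDUFB4: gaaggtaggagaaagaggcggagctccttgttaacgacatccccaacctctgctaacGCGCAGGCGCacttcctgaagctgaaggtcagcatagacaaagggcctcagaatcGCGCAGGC
NDUFA12: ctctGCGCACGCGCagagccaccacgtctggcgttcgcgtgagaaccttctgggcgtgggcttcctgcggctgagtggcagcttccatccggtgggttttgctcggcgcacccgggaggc
NDUFA9: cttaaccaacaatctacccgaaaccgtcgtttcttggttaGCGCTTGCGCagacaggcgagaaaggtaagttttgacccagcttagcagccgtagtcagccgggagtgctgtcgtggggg
NDUFA1: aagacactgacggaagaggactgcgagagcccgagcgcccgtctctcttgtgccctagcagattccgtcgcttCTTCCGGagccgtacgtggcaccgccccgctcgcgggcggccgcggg
NDUFB7: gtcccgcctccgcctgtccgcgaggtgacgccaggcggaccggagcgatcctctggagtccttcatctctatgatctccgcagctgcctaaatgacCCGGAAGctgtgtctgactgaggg
Of these, NDUFB4, NDUFA12, NDUFA1 and NDUFB7 were higher in Nvs with TMM scaling, and NDUFA9, which also carries the NRF1 motif, was lower. Of the other subunit genes with the NRF1 or ETS motif, NDUFA8 and NDUFS1 were higher, NDUFA11 and NDUFA13 were not called, and NDUFA3 and NDUFS3 were not tested. Over both strands, the NRF1 motif (GCGCA, any base, GCGC) was found in 6 of 31 subunit genes (19.4%) against 6.98% of all 27305 genes with a RefSeq promoter. That background, also used for the other motifs, was not limited to tested or protein-coding genes. The ETS motif CCGGAAG was found in 5 (16.1%) against 12.2%, and the SP1 motif GGGGCGGGG in 6 (19.4%) against 18.5%. The motif of YY1, a zinc finger factor, was searched as AANATGGCG and was found in 10 genes (32.3%) against 3.85%. The YY1 match holds the letters ATGGCG, which can also be a start codon, and no match of one motif was set against another for overlap. A match describes letters in these windows and was not taken as a bound site.

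The NADH-oxidising core, at the tip of the matrix arm, holds NDUFV1, NDUFV2 and NDUFS1. NDUFV1 binds NADH and the flavin that receives its electrons, and it measured 195, 171 and 169 CPM in mod and 194, 194 and 215 CPM in Nvs. The groups overlapped, and the log2 fold change was 0.18 ± 0.065 (SE; edgeR adjusted p = 0.0435). The call was lost with the replicate number as a block, with scaling that left out the mitochondrial genome (adjusted p = 0.0556) and when mod 2, mod 3, Nvs 1 or Nvs 3 was left out, and the value turned to -0.07 once a trend of fold change on genomic span was removed and to -0.58 by library total. NDUFS1, the largest core subunit, lies at chr2:206114817-206159603 and carries iron-sulfur clusters. It measured 0.810, 0.567 and 5.27 CPM in mod and 5.54, 9.69 and 6.56 CPM in Nvs. Library mod 3 stood close to the Nvs libraries and well above the other mod libraries. The log2 fold change was 1.72 ± 0.60 (edgeR adjusted p = 0.0339), and it was 3.38 without mod 3. The call was lost in 10 of 17 alternatives, among them DESeq2 (adjusted p = 0.141), and leaving out any library other than mod 3 gave an adjusted p of 0.0523 to 0.125. NDUFV2, which carries an iron-sulfur cluster beside the flavin, measured 0.990, 1.16 and 1.82 CPM in mod and 1.44, 0.442 and 0.210 CPM in Nvs. The groups overlapped through Nvs 1, with a log2 fold change of -0.92 ± 0.57 (edgeR adjusted p = 0.220), and without Nvs 1 the value was -2.02 (adjusted p = 0.00983).

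In the quinone-reducing core, NDUFS7, which holds the last iron-sulfur cluster before the quinone, measured 10.6, 8.62 and 7.50 CPM in mod and 15.2, 13.7 and 16.1 CPM in Nvs. It was higher by 0.75 ± 0.14 (edgeR adjusted p = 0.000719), with no overlap between groups. NDUFS8, a ferredoxin-like subunit, measured 83.4, 78.8 and 87.8 CPM in mod and 130, 121 and 144 CPM in Nvs, a log2 fold change of 0.66 ± 0.069 (edgeR adjusted p = 4.44e-06). Every Nvs library lay above every mod library. Scaled by library total, NDUFS7 turned to -0.01 and NDUFS8 to -0.10. NDUFS3, also of this module, had 3 reads in Nvs 3 and no read in the other 5 libraries, where a count of 0 allows up to 3 counts, or 0.0450 to 0.0947 CPM. It was not tested, and its reading is taken up with the other rows of low counts below.

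Of the 8 accessory subunits of the matrix arm, 6 were higher in Nvs with TMM scaling, 1 was lower and 1 was not called. NDUFA2, a small subunit of thioredoxin-like fold beside the NADH module, measured 8.82, 10.2 and 8.20 CPM in mod and 18.4, 17.9 and 20.9 CPM in Nvs. The lowest Nvs library was well above the highest mod library, and the log2 fold change was 1.07 ± 0.12 (edgeR adjusted p = 1.01e-05). NDUFA2 kept its direction by library total. NDUFS6, a zinc-binding subunit placed late in assembly, was higher by 0.91 on the log2 scale, and by library total it stood at 0.15 without a call. NDUFA12 (0.52), NDUFS4 (0.47), NDUFV3 (0.40) and NDUFA5 (0.22) were also higher, and all 4 turned below 0 by library total. NDUFS4 and NDUFA12 sit at the joint of the NADH and quinone modules, and NDUFS4 is a frequent site of mutation in inherited complex I deficiency. The call of NDUFA5 was lost when mod 1, mod 3, Nvs 1 or Nvs 3 was left out.

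NDUFA9 was the only subunit gene called lower with TMM scaling over all 6 libraries. Its product ends the matrix arm at the membrane and has the fold of a short-chain dehydrogenase. NDUFA9, at chr12:4649095-4694317, measured 7.05, 9.11 and 7.57 CPM in mod and 3.99, 6.16 and 4.28 CPM in Nvs. All Nvs libraries lay below all mod libraries, by a log2 fold change of -0.72 ± 0.20 (edgeR adjusted p = 0.00884). The sign held in all 17 alternatives, from -1.48 by library total to -0.53 with a transcript length trend removed, and the adjusted p was 0.0526 without mod 2. In the annotation, 67.9% of its coding sequence lies in exons of other genes on the same strand. The remaining matrix-arm gene, NDUFA7, had 9 to 38 reads per library and was not called.

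Of the 8 tested accessory subunits of the membrane arm with A, C and S names, 4 were higher and 4 were not called. NDUFA1, a short X-linked membrane-spanning subunit needed for assembly, measured 24.7, 26.1 and 19.9 CPM in mod and 58.2, 43.4 and 53.6 CPM in Nvs. The groups lay far apart, with a log2 fold change of 1.13 ± 0.12 (edgeR adjusted p = 4.32e-06), and the sign held by library total. NDUFS5 and NDUFA8, which like NDUFB7 fold around cysteine pairs on the intermembrane side, were higher by 0.91 and 0.45, and NDUFC1 by 0.57. By library total NDUFS5 stayed above 0 without a call, while NDUFA8 and NDUFC1 turned to -0.31 and -0.19. NDUFA10, a matrix-side subunit related to nucleoside kinases, measured 48.9, 54.0 and 52.4 CPM in mod and 47.6, 46.2 and 50.7 CPM in Nvs. These groups overlapped, with a log2 fold change of -0.10 ± 0.067 (edgeR adjusted p = 0.245), and by library total it was called lower at -0.86 (adjusted p = 9.07e-08). NDUFA10 was, with NDUFB5, 1 of 2 genes at 10 CPM or more that were not called. The other uncalled genes of the set were NDUFC2 (0.30), NDUFA11 (0.13), which contacts complex III in supercomplexes, and NDUFA13 (0.13), also known as GRIM-19.

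Of the 10 B-type subunits of the membrane arm, 7 were higher in Nvs with TMM scaling, and all 10 had a log2 fold change above 0. NDUFB2, a single-pass membrane subunit, measured 19.7, 20.3 and 17.0 CPM in mod and 34.7, 34.5 and 35.5 CPM in Nvs. The Nvs libraries differed by less than 1.0 CPM and stood apart from mod, at a log2 fold change of 0.88 ± 0.091 (edgeR adjusted p = 4.25e-06). NDUFB7, NDUFB4, NDUFB3, NDUFB11, NDUFB1 and NDUFB6 were higher by 0.84, 0.74, 0.62, 0.50, 0.45 and 0.42. By library total NDUFB2 and NDUFB7 stayed slightly above 0 without a call, and the other 8 of the 10 turned below 0. NDUFB5, the B-type gene with the smallest change, measured 19.8, 21.2 and 19.4 CPM in mod and 21.9, 22.0 and 22.1 CPM in Nvs. The groups did not overlap, but the log2 fold change of 0.13 ± 0.09 was not called (edgeR adjusted p = 0.272), and by library total it was called lower at -0.63 (adjusted p = 2.66e-05). NDUFB8 and NDUFB9 were at low counts and were not called.

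NDUFAB1, the mitochondrial acyl carrier protein that also serves fatty acid synthesis, measured 27.7, 27.8 and 25.9 CPM in mod and 36.1, 38.2 and 38.4 CPM in Nvs. The groups lay apart, with a log2 fold change of 0.47 ± 0.076 (edgeR adjusted p = 0.000228), and with the transcript length trend removed it was 0.089 and not called (adjusted p = 0.392). NDUFA4, the complex IV subunit, measured 94.5, 112 and 100 CPM in mod and 167, 154 and 165 CPM in Nvs, a log2 fold change of 0.66 ± 0.066 (edgeR adjusted p = 3.09e-06). By library total NDUFAB1 turned to -0.29 and NDUFA4 to -0.10.

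The accessory subunits were close to each other as sets. The 26 tested accessory genes had a median of 0.46 with 17 higher and 1 lower. Medians by accessory set were 0.43 for the accessory matrix arm, 0.38 for the A, C and S subunits of the membrane arm and 0.49 for the B-type subunits.

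**Figure D3:**
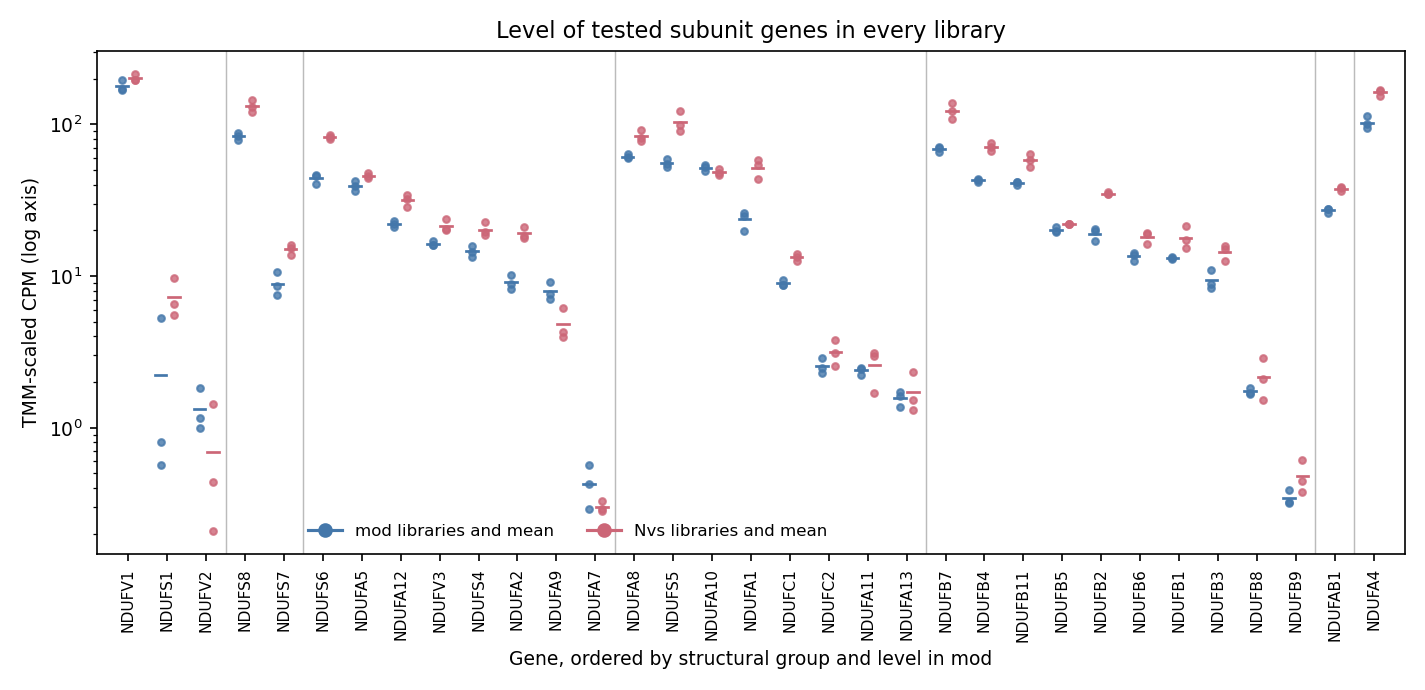
TMM-scaled CPM of 33 tested genes in every library on a log axis, with mod in blue and Nvs in red, and short bars for group means. Grey lines separate the structural groups in the order NADH core, quinone core, matrix arm, membrane arm A/C/S, membrane arm B, acyl carrier and complex IV. Most pairs show Nvs above mod; NDUFA9 lies lower in Nvs, and NDUFS1 in mod 3 (5.27 CPM) lies near the Nvs values.

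The libraries of a group kept a loose order across the family. Library Nvs 2 was the lowest of its group in 24 of 34 genes and Nvs 3 the highest in 22. In mod, library mod 3 was the lowest in 16 and mod 2 the highest in 16. Over the 25 genes with a mean of at least 10 CPM over all 6 libraries, the median coefficient of variation between libraries was 5.41% in mod and 8.45% in Nvs. The genes of 1 library share its depth and scaling, so they are not replicates of each other.

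Levels compared between genes need a length, so the deposited FPKM values (counts scaled by transcript length and library total) serve here. NDUFB7 led in both groups at 166 ± 3.92 FPKM in mod and 176 ± 19.9 in Nvs (SD, n = 3), followed in mod by NDUFS5 at 131 ± 9.41, NDUFA8 at 98.4 ± 4.47 and NDUFA1 at 72.6 ± 10.9. In Nvs, NDUFS5 was at 145 ± 22.5, NDUFA1 at 94.1 ± 13.9 and NDUFA8 at 79.6 ± 6.90. In Nvs the ranges of mean ± SD overlapped between NDUFB7 and NDUFS5 and between NDUFA1 and NDUFA8, although the first of each pair was the higher in every Nvs library. At the low end of the tested genes NDUFB9 stood at 0.0269 ± 0.00298 and 0.0222 ± 0.00573 FPKM. The subunits of the enzyme are made in set proportions as proteins, but their mRNA levels by FPKM differed widely: over the 25 genes with a mean of at least 10 CPM the lowest in mod was NDUFS7 at 1.55 ± 0.278, and lower values come from genes reported below as uncertain. The lengths implied by count over FPKM ran from 423 bp for NDUFA1 to 19438 bp for NDUFA10 and exceed the coding length by far in many genes, which lowers the FPKM of those genes.

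The genes with the lowest counts were largely those whose annotation overlaps other genes. A split at a mean of 10 CPM over all 6 libraries, chosen after the values were seen, put 11 of the 36 genes below it. In GENCODE release 29, on the same build as the deposited tables, 7 of these 11 have coding sequence inside exons of another gene on the same strand, and none of the other 25 do. The overlap was 85.2% of coding sequence in NDUFB8, 84.7% in NDUFV2, 78.3% in NDUFA7, 76.9% in NDUFC2, 67.9% in NDUFA9, 55.2% in NDUFA13 and 36.9% in NDUFA11. The partners include the readthrough gene NDUFC2-KCTD14 for NDUFC2. For NDUFA13 they are AC011448.1 (437 bp of exon overlap) and the neighbour YJEFN3 (131 bp). The coding overlap was not split by partner. In that release NDUFS3 shares 19.6% of its exon bases with PTPMT1 but no coding sequence, and NDUFS1, NDUFA3 and NDUFB9 have no coding overlap. The lengths implied by count over FPKM are close to its exon lengths for NDUFS1 and NDUFA3. They differ for NDUFB9 (16659 against 4106 bp) and NDUFS3 (4524 against 3670 bp), among others. The gene models that were counted may thus overlap differently. NDUFA3, a small membrane-arm subunit, had 8, 2 and 0 reads in mod and 2, 1 and 3 in Nvs and was not tested. How the authors counted reads that fall in 2 genes is not given in the sources used here, so the part of overlap in these levels was not tested, and the 11 genes are reported as uncertain.

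Of the 25 genes above the split with TMM scaling, 23 were higher, none was lower and 2 were not called, with a median log2 fold change of 0.52. Of these 25, 4 (NDUFS7, NDUFA2, NDUFC1 and NDUFB3) reached 10 CPM in Nvs but not in mod, and all 4 were among the higher ones; of the 21 that reached it in both groups, 19 were higher and 2 were not called. Of the 9 tested genes below the split, 1 was higher (NDUFS1), 1 was lower (NDUFA9) and 7 were not called, with a median of 0.13. Exons of 16 of the 36 genes overlap a gene on the opposite strand, among them NDUFA1 with RNF113A (44.5% of its exon bases) and NDUFB11 with RBM10 (44.9%). NDUFS7 overlaps the antisense genes AC005329.1 (35.7%) and AC005329.3 (13.4%), and NDUFB2 overlaps BRAF (27.9%) and NDUFB2-AS1 (7.2%). The libraries mark strand, but the strand setting of the counting is not given, so reads of such pairs may not be fully separated.

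**Figure D4:**
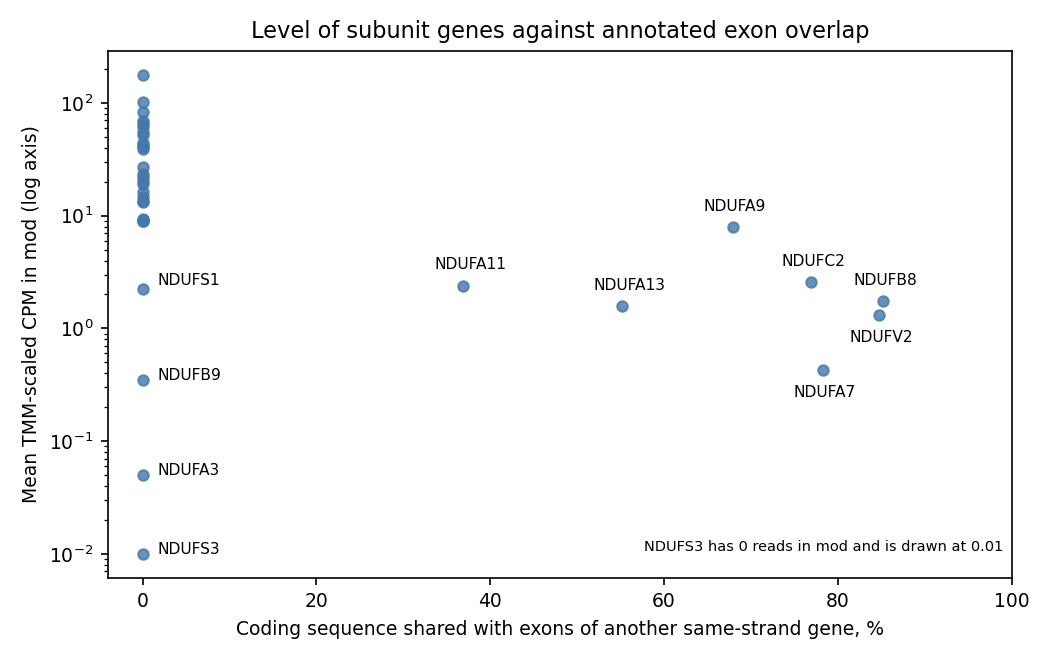
Mean TMM-scaled CPM in mod (log axis) of the 36 genes against the percentage of coding sequence that lies in exons of another gene on the same strand. The 7 genes with overlap, from 36.9% to 85.2%, all lie under 10 CPM in mod, as do 8 genes without coding overlap, of which 4 reached 10 CPM in Nvs.

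The fold change of subunit genes fell with genomic span, as did that of protein-coding genes in general. Across the 34 tested genes, the Spearman correlation of log2 fold change with genomic span was -0.43, and that with the authors' transcript length was -0.34; the genes share libraries and are not replicates. In genes under 5 kb the median was 0.44 for all protein-coding genes and 1.07 for the 3 subunit genes. From 5 to 10 kb these medians were 0.24 and 0.66 (9 subunit genes), and from 10 to 20 kb 0.13 and 0.43 (12 subunit genes). From 20 to 40 kb they were -0.01 and 0.42 (5 subunit genes), from 40 to 80 kb -0.12 and 0.22 (3 subunit genes), and over 80 kb -0.30 and 0.18 (2 subunit genes). In every span range the subunit median lay above that of protein-coding genes, and 28 of 34 subunit genes were above the median of their own range. With the span trend removed in the model, 20 genes were higher and 1 lower with a median of 0.37. With a trend on transcript length removed, 18 were higher and 1 lower with a median of 0.31. The calls lost by the second were those of NDUFA8, NDUFAB1, NDUFB1, NDUFB3, NDUFB6 and NDUFS4, of which NDUFB6 and NDUFS4 fell to 0.011 and 0.019.

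**Figure D5:**
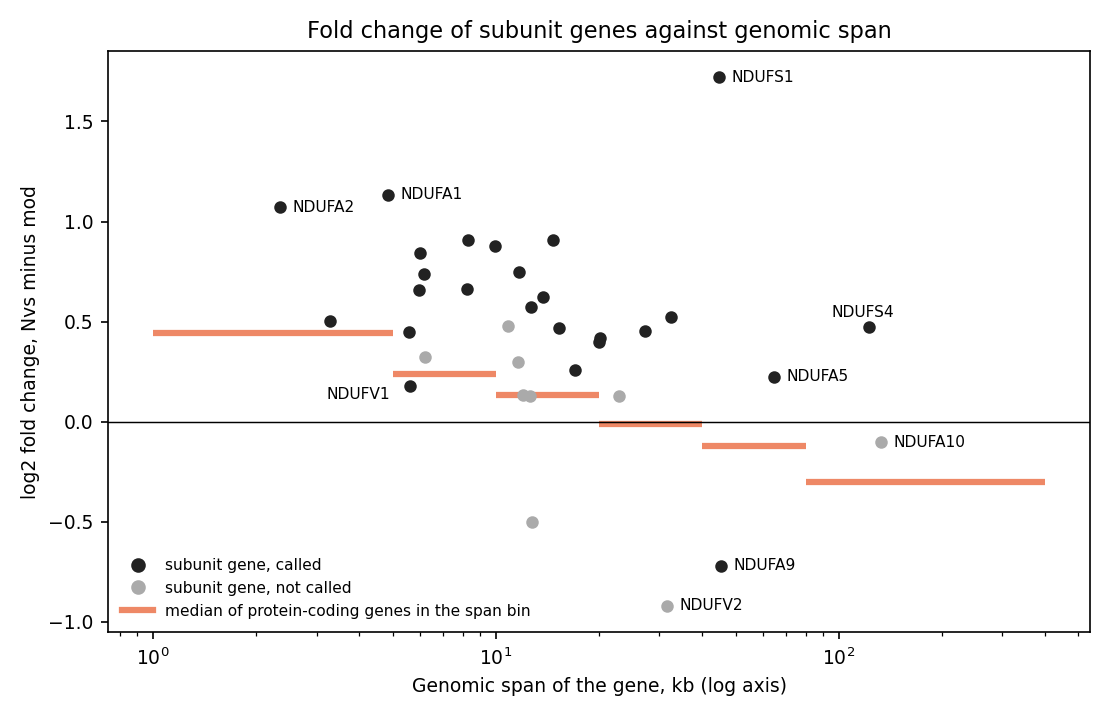
Log2 fold change (Nvs minus mod, TMM scaling) of the 34 tested genes against genomic span in kb on a log axis. Black points were called, grey points were not, and orange bars are medians of tested protein-coding genes within each span range, the outer ranges being open. The bars step down from 0.44 to -0.30, and 28 of 34 points lie above their bar.

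Complex I is built by assembly factors that are not part of the finished enzyme. Of 19 such genes, 11 were higher in Nvs with TMM scaling, 1 was lower and 7 were not called, with a median log2 fold change of 0.31. The shares over all tested genes were 22.8% higher and 20.5% lower. NDUFAF8, the partner of NDUFAF5, which modifies NDUFS7, measured 9.56, 10.3 and 10.1 CPM in mod and 25.4, 22.6 and 24.9 CPM in Nvs. It was the factor with the largest change, at 1.28 ± 0.10 (edgeR adjusted p = 3.70e-07), with groups far apart. NDUFAF3 and NDUFAF4, which act as a pair on the quinone module, were higher by 0.64 and 1.18 with TMM scaling. In FPKM the pair split. NDUFAF3 stood at 5.24, 5.18 and 5.18 FPKM in mod and lower, at 5.01, 4.88 and 4.44, in Nvs. NDUFAF4 stood at 1.98, 1.70 and 1.78 FPKM in mod and higher, at 2.34, 2.61 and 2.39, in Nvs. ACAD9, a flavoprotein of the acyl-CoA dehydrogenase family that takes part in building the membrane arm, measured 52.8, 51.7 and 49.5 CPM in mod and 35.8, 33.0 and 40.7 CPM in Nvs. With TMM scaling it was lower by -0.49 ± 0.08 (edgeR adjusted p = 0.000223), while its partners ECSIT, TMEM126B and TMEM186 were higher by 0.72, 0.55 and 0.73. The contrast depended on the scaling. In FPKM, which scales by library total, ACAD9 and TMEM126B were lower in every Nvs library than in any mod library. The groups of ECSIT and TMEM186 overlapped there. NDUFAF1 (0.27), TIMMDC1 (0.20) and COA1 (-0.15), of the same assembly complex, were not called.

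Of 12 regulators of nuclear respiratory genes, 3 were higher, 3 lower and 6 not called with TMM scaling, with a median log2 fold change of 0.06. These shares lie near those over all tested genes (22.8% higher, 20.5% lower), and only 3 of the 12 were called when mod 1, mod 2 or Nvs 1 was left out. ESRRA, an orphan nuclear receptor that works with PGC-1 coactivators, had the largest rise with TMM scaling. It measured 85.0, 80.8 and 74.5 CPM in mod and 120, 116 and 123 CPM in Nvs. Its log2 fold change was 0.58 ± 0.06 (edgeR adjusted p = 4.28e-06). The direction turned in FPKM, which scales by library total. There ESRRA stood at 35.4, 34.3 and 30.7 in mod and 29.7, 28.8 and 30.1 in Nvs. In FPKM all 12 regulators were lower in every Nvs library than in any mod library. PPARGC1A, which encodes the coactivator PGC-1 alpha, measured 3.99, 3.29 and 3.15 CPM in mod and 1.64, 1.83 and 1.65 CPM in Nvs. It had the largest fall, -1.03 ± 0.24 (edgeR adjusted p = 0.00332), with no overlap between groups. Of the factors whose motifs were searched above, NRF1 (-0.35, edgeR adjusted p = 0.0352) and SP1 (-0.33, edgeR adjusted p = 0.00602) were lower. YY1 (-0.02) and GABPA (0.00) were not called, and GABPB2 was higher by 0.38. NRF1 spans 145357 bp, and the median of protein-coding genes over 80 kb was -0.30. SP1 spans 36271 bp, and the median from 20 to 40 kb was -0.01. With the span trend removed, 5 of the 12 regulators were called.

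The 7 mitochondrially encoded subunits of complex I were all higher in Nvs. Their log2 fold changes ran from 1.19 for MT-ND4L to 1.66 for MT-ND1 with a median of 1.39, and all 7 were called under every setting that could be fitted, scaling by library total included. Of the nuclear subunit genes, only NDUFS1 reached the lowest of these values, and it is among the genes of low counts reported above as uncertain. In mod, MT-ND transcripts took 6.37% ± 0.220 of all counts, and in Nvs 10.0% ± 0.303. Per count of a nuclear subunit gene there were 46.4, 43.2 and 49.3 MT-ND counts in mod and 84.8, 93.8 and 78.2 in Nvs. This ratio needs no library scaling, and its groups did not overlap.

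The other nuclear genes of oxidative phosphorylation were described for comparison. In a list of complexes II to V written after the complex I values were seen, 37 of 38 genes were tested, with 30 higher, 3 lower and a median log2 fold change of 0.52 under TMM scaling. The lower ones were ATP5F1A (-0.19), a catalytic-head subunit of ATP synthase, SDHA (-0.31), the flavoprotein of complex II, and UQCRC2, a core subunit of complex III. UQCRC2 stood at -2.81 with an edgeR adjusted p of 0.0223. Its counts are not given here, so that value may rest on low counts. Over all tested genes the shares were 22.8% higher and 20.5% lower. Values of this list by library total are not given here. The direction of the nuclear complex I genes is thus not shown to be particular to them.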

How the data were processed

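RNA of 6 HaCaT libraries was deposited as a table of gene counts, which the authors made as raw counts per gene symbol, and as a table of FPKM values, which the authors normalised for transcript length and library total. Per the labels' protocols, libraries were poly(A)-selected, strand-specific (dUTP) and read as 150 bp paired ends; per the submitters' processing notes the build is hg38. No source used here gives the aligner, the counter or its settings.

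The count table was fitted with edgeR 4.0.16 under R 4.3.3: filterByExpr (minimum count 10, minimum total 15), TMM scaling, the quasi-likelihood F test of Nvs against mod over 14617 genes and Benjamini-Hochberg adjustment. Calls needed an adjusted p under 0.05. Standard errors were derived from the log2 fold change and the F statistic (|log2 fold change| over √F). The fit was also run on simulated counts, and the outcome is not reported here. DESeq2 1.42.0 and limma 3.58.1 (FPKM, pseudocounts 1 and 0.1, so those fold changes are on the log2(FPKM + pseudocount) scale and understate low genes) were alternatives, beside other scalings, filters, length trends, a replicate block and each library left out. Spans and promoters came from RefSeq GRCh38.p14, and exon overlap from GENCODE 29. Intervals of 0 counts cover counting error only.

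The genes and lists were chosen with earlier results of these data known. Values of 1 subunit gene are not reported here on their own, though it counts in the totals. Named in full are the other core subunits, the genes with the largest and smallest fold change of each structural group, of the assembly factors and of the regulators, and NDUFAB1 and NDUFA4; other genes are named by value only.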

Additional observations from a re-analysis of the deposited data

How the results depend on the processing

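The scaling of the libraries decided the sign. Against 24 subunit genes higher and 1 lower with TMM, 2 were higher and 15 lower by library total, 2 and 18 in limma on log2(FPKM + 1) and on log2(FPKM + 0.1), and 0 and 13 on log2(FPKM + 1) without a filter; FPKM also scales by library total. The family's median log2 fold change was -0.29 by library total, -0.23 with a pseudocount of 1, with or without the filter, and -0.29 with 0.1, against 0.47 with TMM; over all genes called, these settings gave 10528, 10719, 10717 and 10450 (unfiltered) in place of 6329. By library total 591 genes of all were higher and 9937 lower, or 5.61% of calls higher against 52.8% with TMM. The regulators called in either direction numbered 12 by library total, 12 on log2(FPKM + 1), 11 on log2(FPKM + 0.1) and 10 unfiltered, against 6. In FPKM all 12 were lower in every Nvs library than in any mod library, those called higher with TMM included.

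Scaled by library total, the log2 fold change turned to -0.24 in NDUFA12, -0.10 in NDUFA4, -0.54 in NDUFA5, -0.31 in NDUFA8, -0.29 in NDUFAB1, -0.31 in NDUFB1, -0.26 in NDUFB11, -0.14 in NDUFB3, -0.02 in NDUFB4, -0.34 in NDUFB6, -0.19 in NDUFC1, -0.29 in NDUFS4, -0.011 in NDUFS7, -0.10 in NDUFS8, -0.58 in NDUFV1 and -0.36 in NDUFV3. Of the genes not called with TMM, NDUFB5 (-0.63), NDUFA11 (-0.63), NDUFA13 (-0.62), NDUFC2 (-0.46), NDUFB8 (-0.44) and NDUFB9 (-0.28) also turned, and NDUFB5, NDUFA10 (-0.86) and NDUFV2 (-1.67) became lower calls. On log2(FPKM + 1), filtered or not, it was -0.18 in NDUFA12, -0.090 in NDUFA4, -0.40 in NDUFA5, -0.30 in NDUFA8, -0.28 in NDUFAB1, -0.28 in NDUFB1, -0.24 in NDUFB11, -0.11 in NDUFB3, -0.022 in NDUFB4, -0.31 in NDUFB6, -0.15 in NDUFC1, -0.27 in NDUFS4, -0.00083 in NDUFS7, -0.10 in NDUFS8, -0.56 in NDUFV1 and -0.27 in NDUFV3. On log2(FPKM + 0.1) it was -0.23 in NDUFA12, -0.092 in NDUFA4, -0.52 in NDUFA5, -0.31 in NDUFA8, -0.29 in NDUFAB1, -0.32 in NDUFB1, -0.26 in NDUFB11, -0.13 in NDUFB3, -0.02 in NDUFB4, -0.34 in NDUFB6, -0.18 in NDUFC1, -0.29 in NDUFS4, -0.10 in NDUFS8, -0.58 in NDUFV1 and -0.35 in NDUFV3. NDUFV1 turned to -0.072 with the span trend removed and NDUFA8 to -0.074 with the transcript length trend removed, where the family's medians were 0.37 and 0.31; the MT-ND genes have no span and could not be fitted there.

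Of the regulators, 4 were called with no filter and 4 with the replicate block. DESeq2 gave 23 higher and 1 lower, no filter and a minimum count of 50 gave 24 and 1. Same-numbered libraries correlated in their deviations at -0.018, -0.008 and -0.023, and differently numbered ones at -0.018 to 0.035. Values this near 0 cannot show whether the libraries were paired, and the labels do not say. With the replicate block 23 subunit genes were higher and 1 lower, NDUFV1 lost its call, and 5950 genes were called in all. Leaving out 1 library gave 21 to 23 higher and 0 to 2 lower (none without mod 2; NDUFV2 added without Nvs 1), a median of 0.42 to 0.53, 10 to 13 assembly factors and 3 to 5 regulators called, and a difference in share of nuclear counts of 0.0444 to 0.0556 percentage points and of all counts of -0.0238 to -0.0166. All genes called then numbered 5159 to 6392. Depth limits the 11 genes under 10 CPM, where 1 library can decide a value.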
